A study of Mus musculus with 12 samples.

Results

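The 9 genes described here carry out MHC class II antigen presentation: H2-Aa, H2-Ab1, H2-Eb1, Cd74, H2-DMa, H2-DMb1, Ciita, Cd86 and Cd83. They were chosen by their symbols, and all 9 were found among the 23474 genes of the deposited FPKM table (fragments per kilobase, relative to the mapped fragments of the library, so that levels can be compared between genes of different length). RNA-seq was performed on epididymal white adipose tissue (eWAT) of male C57BL/6J mice aged 17 weeks, with 3 libraries in each of 4 groups of 10 mice. From 5 weeks of age and for 12 weeks, the ND group received a normal diet, the HFD group a high-fat diet, the GT group the high-fat diet with an ethanol extract of green tea at 0.25% (w/w), and the TJ group the high-fat diet with 3% (w/w) Taeeumjowitang, a Korean herbal medicine. The high-fat diet was thus shared by 3 of the groups, and no group carried a genetic change. The methods state that the HFD and TJ libraries came from randomly selected mice, 3 in each group. For the ND and GT libraries nothing states that they came from separate mice, and the p-values measure the spread between these libraries.

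MHC class II molecules are pairs of an α and a β chain that show peptides from engulfed proteins to CD4+ T cells. They are assembled with the invariant chain, which is cut by proteases in endosomes, and the DM molecule then exchanges the remaining fragment for a peptide. The genes of the pathway are switched on together by the transactivator CIITA, and in adipose tissue they are known from macrophages, dendritic cells and B cells, with interferon-γ able to induce them in other cells, adipocytes included.

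H2-Aa and H2-Ab1 encode the α and β chains of the I-A molecule, and H2-Eb1 encodes the β chain of I-E. The C57BL/6 strain carries a defective gene for the I-E α chain, so that its cells do not display I-E. In GRCm38, H2-Aa (ENSMUSG00000036594) lies on chromosome 17 from 34282744 to 34287823, H2-Ab1 (ENSMUSG00000073421) from 34257689 to 34269419 and H2-Eb1 (ENSMUSG00000060586) from 34305867 to 34316674. H2-DMa (ENSMUSG00000037649) and H2-DMb1 (ENSMUSG00000079547), the chains of DM, lie on the same chromosome from 34119541 to 34139101 and from 34153072 to 34160230. Ciita (ENSMUSG00000022504) and Cd86 (ENSMUSG00000022901) lie on chromosome 16, and Cd83 (ENSMUSG00000015396) on chromosome 13. H2-Eb1 overlaps an antisense gene, Ciita overlaps Dexi on the opposite strand and H2-DMa overlaps Brd2 and 2 antisense genes. The library kit named in the labels does not mark strand, so fragments of such partners cannot be told apart. H2-DMb1 shares 22.7% of its 50-base stretches with H2-DMb2, so that its values are uncertain, and the size of that uncertainty was not measured. H2-DMb2 was at 21.2 FPKM in ND replicate 1 and at 1.91 to 4.17 FPKM in the other libraries.

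Class II promoters are known for an X box, bound by the RFX complex, and a Y box, bound by NF-Y, at a fixed spacing, and CIITA acts through the proteins on them. The 150 bases before the RefSeq start of H2-Aa (chr17:34287824-34287973, minus strand) and H2-Eb1 (chr17:34305717-34305866, plus strand) in GRCm38.p6 are shown, read 5′ to 3′ on the strand of the gene, because they hold letters of both boxes and lie outside annotated transcripts. Capitals mark a GNAAC followed by an ATTGG.
H2-Aa: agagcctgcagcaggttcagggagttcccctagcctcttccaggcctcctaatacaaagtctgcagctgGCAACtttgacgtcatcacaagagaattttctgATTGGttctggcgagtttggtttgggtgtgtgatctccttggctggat
H2-Eb1: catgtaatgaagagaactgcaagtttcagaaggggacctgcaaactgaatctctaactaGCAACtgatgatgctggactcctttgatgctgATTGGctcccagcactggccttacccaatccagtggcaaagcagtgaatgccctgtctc

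The first bases of the marked motifs lie 33 bases apart in H2-Aa and 32 bases apart in H2-Eb1. The ATTGG starts 48 bases before the start of H2-Aa and 59 bases before that of H2-Eb1. RefSeq promoter windows, from 250 bases before to 50 bases after the start, were at hand for 4 of the 9 members. A GNAAC with an ATTGG 28 to 36 bases further on the same strand was present in 3 of these 4 members (H2-Aa, H2-Eb1 and H2-DMb1) and in no window of H2-DMa. This spacing was chosen after the sequences of the members had been seen. Of 32851 promoter windows of this length, searched on both strands, 1.55% held the pair, 37.4% held an ATTGG and 84.8% held a GNAAC. The motifs do not overlap one another, and a match describes these letters and not a bound site.

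Before the results, the libraries that stand apart are described. ND replicate 1 held transcripts of the testis and epididymis, which border this fat depot: 8 germ cell genes, among them the protamine gene Prm1, summed to 100300 FPKM in it and to between 0.685 and 2934 FPKM in the other libraries. The next highest sums were those of ND replicate 3 at 2934 FPKM and HFD replicate 1 at 2058 FPKM, with 165 FPKM or less in the rest. ND replicate 3 stays in the comparisons that leave ND replicate 1 out. The 8 epididymis genes summed to 16980 FPKM in ND replicate 1 and to 1560 FPKM in HFD replicate 2. The FPKM values of all genes summed to 1002765 in ND replicate 1 and to 527904 to 725245 elsewhere, and its depth, estimated from the steps between small values, was the lowest at about 10.0M fragments, against 14.5M to 19.1M in the others. Comparisons with the ND group are therefore given with and without this library. The adipocyte gene Adipoq, which encodes adiponectin, was present in all 12 libraries, at 202 FPKM in ND replicate 1 and at 908 FPKM or more in the rest.

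The chains and the invariant chain were by far the most abundant of the 9 genes, and Cd74 (ENSMUSG00000024610, chromosome 18), the invariant chain, had the highest level of the 9 in all 12 libraries, followed by H2-Aa. H2-Aa was at 119, 359 and 269 FPKM in the ND libraries, at 791, 676 and 664 FPKM in the HFD libraries, at 834, 674 and 484 FPKM in the GT libraries and at 848, 560.3 and 753 FPKM in the TJ libraries, in the order of the replicate numbers here and in what follows. All libraries of the mice on a high-fat diet were above all ND libraries, and the 3 groups on that diet overlapped one another. H2-Ab1 was at 69.0, 183 and 185 FPKM in the ND group, at 619, 439.6 and 482 FPKM in the HFD group, at 635, 468 and 352 FPKM in the GT group and at 672, 478 and 564 FPKM in the TJ group. Its order of libraries was close to that of H2-Aa, with ND replicate 1 lowest in the ND group and GT replicate 3 lowest in the GT group. H2-Eb1 was at 100.1, 233 and 196 FPKM in the ND group, at 587, 414 and 462 FPKM in the HFD group, at 605, 492 and 359 FPKM in the GT group and at 702, 515 and 589.5 FPKM in the TJ group. The TJ group had the highest mean of H2-Eb1, 602 ± 94.1 FPKM (SD, n = 3) against 488 ± 89.5 FPKM (SD, n = 3) for HFD, and the values of these groups overlapped. Cd74 was at 149, 565 and 472 FPKM in the ND group, at 1406, 1041 and 1159 FPKM in the HFD group, at 1445, 1201 and 881 FPKM in the GT group and at 1335, 848 and 1271 FPKM in the TJ group.

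The chains of DM, the peptide editor, were about an order lower. H2-DMa was at 26.3, 19.1 and 15.98 FPKM in the ND libraries, at 52.4, 33.1 and 34.8 FPKM in the HFD libraries, at 57.4, 47.2 and 35.5 FPKM in the GT libraries and at 49.8, 29.0 and 42.7 FPKM in the TJ libraries. It was the member whose level in ND replicate 1 was the highest of the ND group. H2-DMb1 was at 13.0, 16.8 and 17.1 FPKM in the ND libraries, at 89.4, 74.4 and 78.7 FPKM in the HFD libraries, at 94.9, 72.1 and 42.0 FPKM in the GT libraries and at 68.4, 29.2 and 57.5 FPKM in the TJ libraries. The TJ libraries all lay between the ND and the HFD libraries.

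Ciita, which encodes the transactivator, was at 0.150, 2.41 and 3.23 FPKM in the ND libraries, at 9.38, 10.1 and 9.30 FPKM in the HFD libraries, at 11.0, 9.81 and 6.40 FPKM in the GT libraries and at 6.00, 2.005 and 7.25 FPKM in the TJ libraries. The TJ libraries were all below the HFD libraries, and TJ replicate 2 was below ND replicates 2 and 3. Cd86, a costimulatory ligand of CD28, was at 0.378, 3.52 and 2.37 FPKM in the ND libraries, at 4.10, 5.12 and 4.48 FPKM in the HFD libraries, at 5.14, 4.74 and 2.99 FPKM in the GT libraries and at 4.58, 5.52 and 4.79 FPKM in the TJ libraries. Outside the ND group its values overlapped. Cd83, a marker of activated dendritic cells and B cells that protects class II and CD86 proteins from degradation, was at 1.61, 8.49 and 9.32 FPKM in the ND libraries, at 40.5, 42.7 and 46.0 FPKM in the HFD libraries, at 25.1, 20.7 and 12.3 FPKM in the GT libraries and at 20.6, 9.47 and 16.8 FPKM in the TJ libraries. The HFD libraries were above every other library for this gene, and the GT and TJ libraries overlapped.

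**Figure D1:**
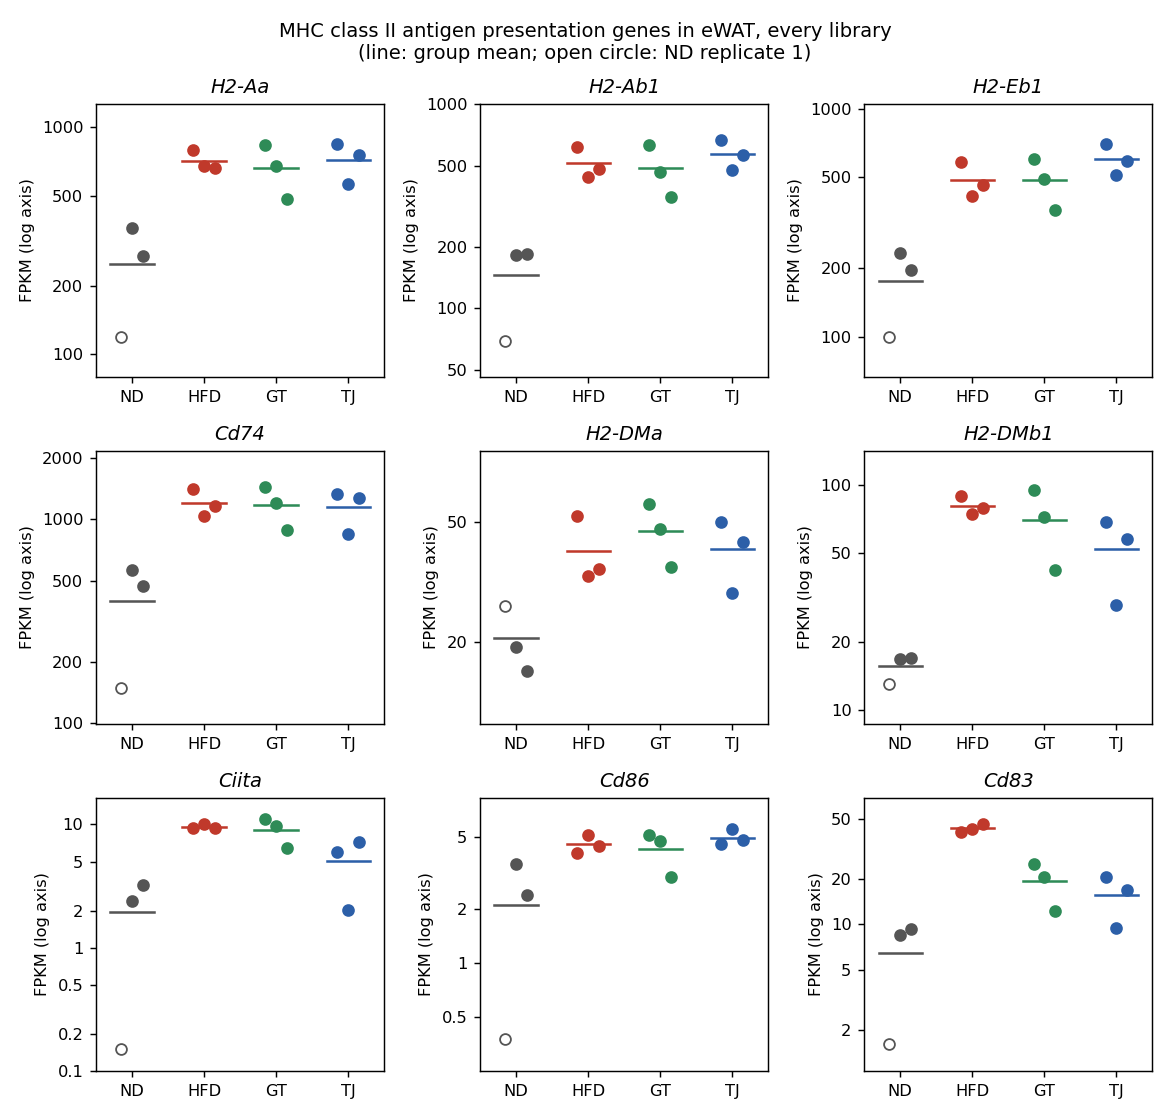
Level of each of the 9 genes (FPKM, log axis) in every library of the ND, HFD, GT and TJ groups, with lines at the group means and ND replicate 1 as an open circle. The 3 groups on a high-fat diet overlap for H2-Aa, H2-Ab1, H2-Eb1, Cd74 and H2-DMa, whereas the HFD libraries of Cd83, at 40.5 to 46.0 FPKM, lie above all others.

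The libraries of a group ranked alike for most members. GT replicate 1 was the highest and GT replicate 3 the lowest of its group for 9 of 9 genes. TJ replicate 2 was the lowest of its group for 8 of 9, all but Cd86, and ND replicate 1 for 8 of 9, all but H2-DMa. In the HFD group, replicate 2 was the lowest for 5 of the 9 genes and no library was the lowest for more. The summed level of the 9 genes was 478 to 1391 FPKM in the ND group, 2736 to 3600 FPKM in the HFD group, 2175 to 3713 FPKM in the GT group and 2477 to 3706 FPKM in the TJ group.

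The comparison of the HFD with the ND group asks what the high-fat diet alone changed. Every HFD library was above every ND library for 9 of the 9 genes, as it was for 20.5% of the 14430 genes tested. The ratio of the group means ran from 1.96 for H2-DMa to 6.65 for Cd83. Without ND replicate 1, every HFD library was still above the ND libraries for 9 of the 9 members, and for 28.0% of the tested genes, and the ratio ran from 1.55 for Cd86 to 4.83 for Cd83. In limma, a differentially expressed gene (DEG) was one whose p-value stayed under 0.05 after Benjamini-Hochberg adjustment over all tested genes and whose level differed at least 1.5-fold, and such genes are called higher or lower. The log2 fold changes refer to FPKM + 1, which makes those of low genes smaller. H2-DMb1 was the one member called, and it rose from 15.6 ± 2.27 to 80.9 ± 7.73 FPKM (SD, n = 3), and its log2 fold change was 2.31 (standard error 0.26, adjusted p = 0.0241). That is 1 of 9 members, where 1.73% of the tested genes were called higher in the HFD group. The log2 fold changes of the others were 1.65 for H2-Aa, 1.93 for H2-Ab1, 1.53 for H2-Eb1, 1.80 for Cd74, 0.93 for H2-DMa, 2.05 for Ciita, 1.01 for Cd86 and 2.79 for Cd83, with adjusted p-values of 0.0944 to 0.494. The median over the 9 was 1.80, and that over all tested genes was 0.07.

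Without ND replicate 1, 8 of the 9 members were called higher in the HFD group, and 11.0% of 13661 tested genes were. The log2 fold change was then 1.19 for H2-Aa (standard error 0.17, adjusted p = 0.0120), 1.46 for H2-Ab1, 1.17 for H2-Eb1, 1.21 for Cd74, 1.12 for H2-DMa, 2.19 for H2-DMb1, 1.48 for Ciita and 2.15 for Cd83. Cd86 was the member not called, at 0.51 (adjusted p = 0.20). The median over the 9 was then 1.21, beside -0.02 for all tested genes. The changes of the chains were smaller without this library, whose levels of H2-Aa, H2-Ab1, H2-Eb1 and Cd74 were the lowest of all 12. The replicate numbers were taken to pair these groups, which no label states, and the fits above do not use this pairing. With the replicate number as a block H2-DMb1 was not called (adjusted p = 0.126) and 0 of the 9 members were, where 0.0% of all tested genes were called, while 7 members had an unadjusted p-value under 0.05 in limma. The call of H2-DMb1 thus holds for the fit without the block and not for the one with it. H2-DMb1 was also not called without HFD replicate 1, 2 or 3 or without ND replicate 2 or 3, with adjusted p-values of 0.0710 to 0.262, in fits that called 0 to 24 of all tested genes.

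The comparison of the TJ with the ND group shows how far the members of the TJ group stood from the lean controls. Every TJ library was above every ND library for 8 of the 9 members, all but Ciita, and for 12.5% of the 14251 genes tested. Without ND replicate 1 this held for the same 8 members and for 22.1% of the tested genes. None of the members was called in limma, and 0.0% of all tested genes were, although 6 of the 9 members and 1532 of all genes had an unadjusted p-value under 0.05. The largest log2 fold changes were those of H2-Ab1 at 2.08, H2-Eb1 at 1.84 and Cd74 at 1.72, each with an adjusted p of 0.446. In a fit chosen after the data had been seen, over 11 libraries without ND replicate 1, 6 members were called higher in the TJ group, which were H2-Aa, H2-Ab1, H2-Eb1, H2-DMa, H2-DMb1 and Cd74, and 9.53% of the tested genes were. The log2 fold changes in it were 1.61 for H2-Ab1 and 1.19 for H2-Aa, whereas that of Cd83 was 0.68 (adjusted p = 0.133) and that of Ciita 0.55 (adjusted p = 0.278). When ND replicate 1 was left out of the 6-library fit, 0 members and 0 of all tested genes were called, 6 members and 3163 genes had an unadjusted p-value under 0.05, and the largest log2 fold changes were those of H2-Ab1 at 1.61, H2-Eb1 at 1.48 and H2-DMb1 at 1.47.

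The comparison of the TJ with the HFD group, which share the high-fat diet, is the one at the centre of the study. Of the 9 members, Cd83 was called: it fell from a mean of 43.1 ± 2.75 FPKM (SD, n = 3) in the HFD libraries to 15.6 ± 5.66 FPKM (SD, n = 3) in the TJ libraries, and its log2 fold change was -1.47 (standard error 0.26, adjusted p = 0.0248). The background was 11.1% of 12807 tested genes called lower in the TJ group and 7.41% called higher. The TJ libraries of 3 members, H2-DMb1, Ciita and Cd83, were all below the HFD libraries, and the same was true of 31.4% of the tested genes. Each of these 3 had a p of 0.1 in a two-sided exact permutation test, the smallest that 3 libraries against 3 can give. The log2 fold change of H2-DMb1 was -0.72 (95% confidence interval -1.43 to 0.00, adjusted p = 0.121) and that of Ciita was -0.93 (-1.78 to -0.08, adjusted p = 0.0997). The chains had differences close to 0. H2-Aa differed by 0.00 (-0.46 to 0.46), H2-Ab1 by 0.16 (-0.31 to 0.62), H2-Eb1 by 0.31 (-0.15 to 0.77) and Cd74 by -0.08 (-0.61 to 0.45), and H2-DMa differed by 0.01 (-0.59 to 0.61), with adjusted p-values of 0.259 to 0.990. The sign of these small differences is not fixed: those of H2-Aa and H2-Ab1 were negative under quantile normalization, at -0.34 and -0.14, and that of Cd74 was positive under median-of-ratios scaling, at 0.06. Cd86 differed by 0.10 (-0.24 to 0.44, adjusted p = 0.606). The median over the 9 members was 0.00, and that over all tested genes was -0.14, which moved to -0.02 under median-of-ratios scaling and to 0.03 under quantile normalization.

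The call of Cd83 was lost when HFD replicate 1, 2 or 3 or TJ replicate 1 was left out, with adjusted p-values of 0.0563 to 0.113. Each of these 4 fits called 0 of all tested genes, so that the loss was not particular to Cd83, and its log2 fold change stayed between -1.69 and -1.17 over the libraries left out. It was also lost with no filter on low values (adjusted p = 0.0528) and with all 12 libraries in the fit (adjusted p = 0.172). Without TJ replicate 3, Ciita was called as well, at -1.21 (adjusted p = 0.0492), in a fit that called 3412 of 12873 tested genes. Without TJ replicate 2, the lowest library of the group, the log2 fold change in limma was -0.48 for Ciita (adjusted p = 0.0417), which missed the 1.5-fold limit. That of H2-DMb1 was -0.36 (adjusted p = 0.106), in a fit that called 2023 of 12869 tested genes.

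In the GT group, which received the green tea extract with the same high-fat diet, Cd83 was again the member called against the HFD group. It fell to 19.4 ± 6.50 FPKM (SD, n = 3), and its log2 fold change was -1.17 (standard error 0.24, adjusted p = 0.0482), where 1.81% of 12766 tested genes were called lower. The TJ and GT comparisons share the HFD libraries, and a fall of Cd83 in both is not 2 independent observations. The GT libraries of Cd83 were the only ones of a member to lie wholly below the HFD libraries, as did those of 24.4% of the tested genes. The other 8 members had log2 fold changes of -0.28 for H2-DMb1 to 0.22 for H2-DMa, with the chains at -0.13 (H2-Aa), -0.11 (H2-Ab1), -0.02 (H2-Eb1) and -0.05 (Cd74), all 4 of which turned positive under median-of-ratios scaling, which moved the median of all tested genes from -0.12 to -0.01. Ciita was at -0.10 (95% confidence interval -0.53 to 0.33), and the difference between its changes in the TJ and GT groups was not tested. The median over the members was -0.10. The call of Cd83 was lost when HFD replicate 1, 2 or 3 or GT replicate 2 or 3 was left out, with adjusted p-values of 0.0724 to 0.177, in fits that called 4 to 66 of all tested genes. It was also lost with no filter (adjusted p = 0.0920), without the trend (0.0663), with the replicate block (0.102), with all 12 libraries in the fit (1.00) and in the fit without ND replicate 1 (0.0840).

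**Figure D2:**
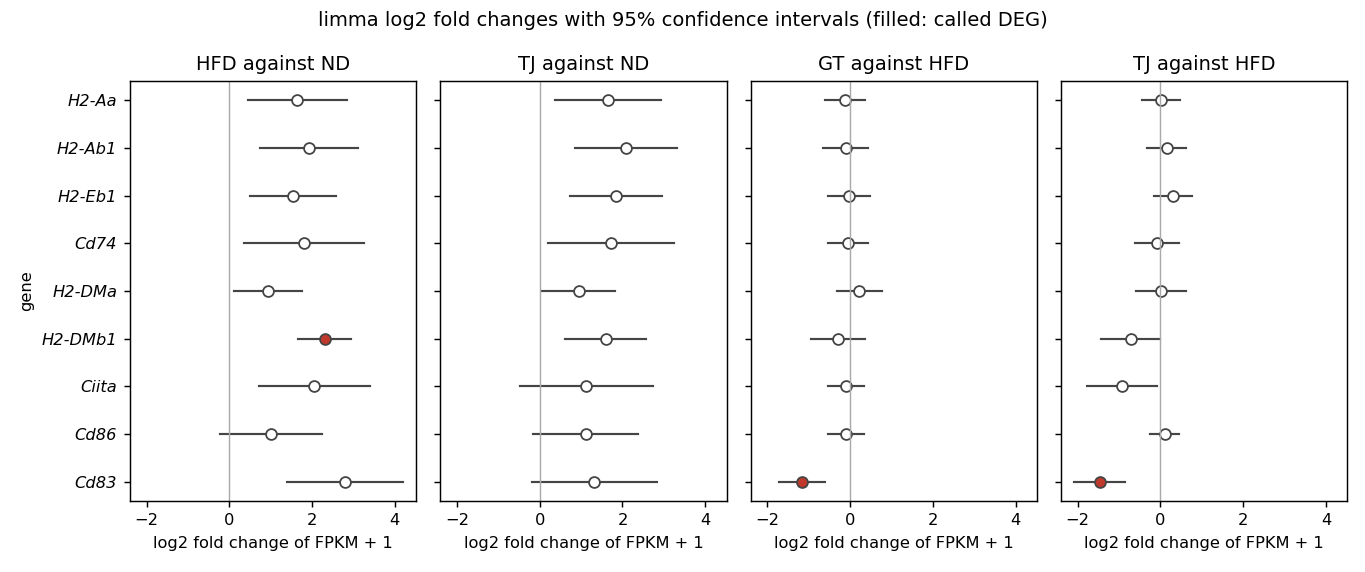
Log2 fold changes of FPKM + 1 (limma, with 95% confidence intervals) of the 9 genes in the 4 comparisons, with filled points for DEGs. H2-DMb1 against the ND group (2.31) and Cd83 against the HFD group in both treated groups (-1.17 for GT, -1.47 for TJ) are filled, and the intervals of the chains span 0 in both comparisons with the HFD group. The fits drawn have no replicate block, with which H2-DMb1 and, in the GT group, Cd83 were not called.

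The 2 chains of DM, which form a single molecule, were compared as a ratio, given as a description with no test. The sharing of stretches between H2-DMb1 and H2-DMb2 and the overlap of H2-DMa with Brd2 bear on it. The ratio of H2-DMb1 to H2-DMa (FPKM over FPKM) was 0.493, 0.877 and 1.07 in the ND libraries, 1.71, 2.25 and 2.26 in the HFD libraries, 1.65, 1.53 and 1.18 in the GT libraries and 1.37, 1.01 and 1.35 in the TJ libraries. All HFD libraries were above all others, and TJ replicate 2 was within the range of the ND libraries. The mean was 0.813 ± 0.292 (SD, n = 3) in the ND group, 0.972 without its replicate 1, and 2.07 ± 0.317 (SD, n = 3) among HFD libraries, 1.45 ± 0.243 (SD, n = 3) in the GT group and 1.24 ± 0.204 (SD, n = 3) in the TJ group. By contrast, the ratio of H2-Ab1 to H2-Aa, the chains of I-A, was 0.650 to 0.783 in the HFD group, 0.695 to 0.761 in the GT group and 0.749 to 0.854 in the TJ group, and 0.511 to 0.687 in the ND group. The ratio of Cd74 to H2-Aa was 1.51 to 1.82 in the 3 groups on a high-fat diet. The ratio of H2-Eb1 to H2-Ab1, the β chains of I-E and I-A, was 0.948, 0.942 and 0.958 in the HFD libraries and 1.04, 1.08 and 1.05 in the TJ libraries, which were all higher. It was 1.45, 1.27 and 1.06 in the ND libraries, which were also above the HFD libraries, and 0.953, 1.05 and 1.02 in the GT libraries, which overlapped both the HFD and the TJ libraries.

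**Figure D3:**
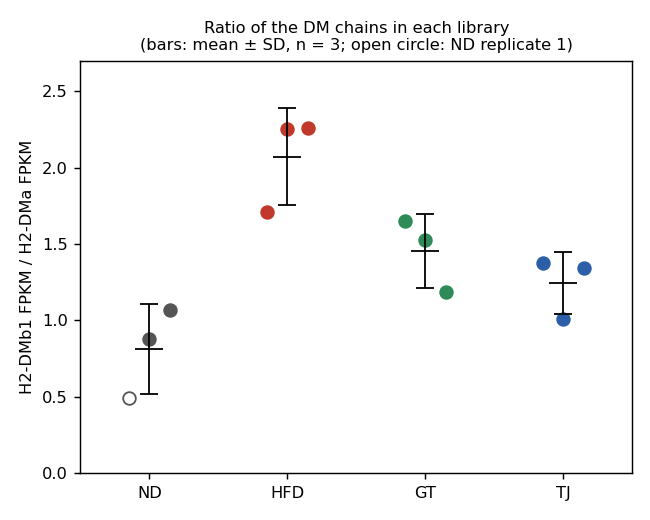
Ratio of the FPKM of H2-DMb1 to that of H2-DMa in every library by group, with bars for the mean ± SD (n = 3) and ND replicate 1 as an open circle. The HFD libraries, at 1.71 to 2.26, lie above the GT libraries at 1.18 to 1.65 and the TJ libraries at 1.01 to 1.37.

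The eWAT is a mixture of cells, and in bulk RNA fewer cells of a type and less RNA per cell cannot be told apart. The class II chains were therefore set beside Ptprc (CD45), Csf1r and Adgre1 (F4/80), genes of leukocytes and macrophages, in the same library. The mean log2(FPKM + 1) of H2-Aa, H2-Ab1, H2-Eb1 and Cd74 minus that of these 3 genes was 5.43, 3.87 and 3.85 in the ND libraries, 2.58, 2.25 and 2.09 in the HFD libraries, 3.09, 2.95 and 3.42 in the GT libraries and 3.96, 5.25 and 3.74 in the TJ libraries. The HFD libraries were the lowest, the GT libraries came next and the TJ libraries were above both. The highest ND value was that of replicate 1, and against ND replicates 2 and 3 alone TJ replicates 1 and 2 were higher and TJ replicate 3 was lower. The difference between group means was 2.01 for TJ minus HFD, 0.85 for GT minus HFD and -2.08 for HFD minus ND, which was -1.55 without ND replicate 1. That for TJ minus ND was -0.06, and 0.46 without ND replicate 1. Between the TJ and HFD groups the chains differed by 0.10 and the leukocyte genes by -1.91. These values are a description with no test, and the part of the cell composition in them was not tested.

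Both sides of this difference can be read separately. The chains averaged 9.40 ± 0.22 (SD, n = 3) on the log2 scale in the HFD group, 9.32 ± 0.39 (SD, n = 3) in the GT group and 9.50 ± 0.28 (SD, n = 3) in the TJ group. The leukocyte genes averaged 7.09 ± 0.14 (SD, n = 3), 6.17 ± 0.59 (SD, n = 3) and 5.18 ± 1.07 (SD, n = 3) in the same order. Member by member, the log2 ratio to Adgre1 was higher in all TJ than in all HFD libraries for 9 of 9 genes, with mean differences of 1.04 for Cd83 to 2.81 for H2-Eb1, and the same held for 94.3% of the tested genes. The ratio to Csf1r and the ratio to Ptprc were higher for 8 of the 9, all but Cd83, whose difference was 0.03 against Csf1r and 0.27 against Ptprc, beside 83.0% and 87.9% of the tested genes. These counts were thus close to those of genes in general. The other 25 ratios had an exact permutation p of 0.1 (two-sided), the smallest possible here, and 0.108 after Benjamini-Hochberg adjustment over the 27 ratios. Ptprc, Csf1r and Adgre1 were themselves called lower in the TJ group, at -1.74, -1.50 and -2.51.

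**Figure D4:**
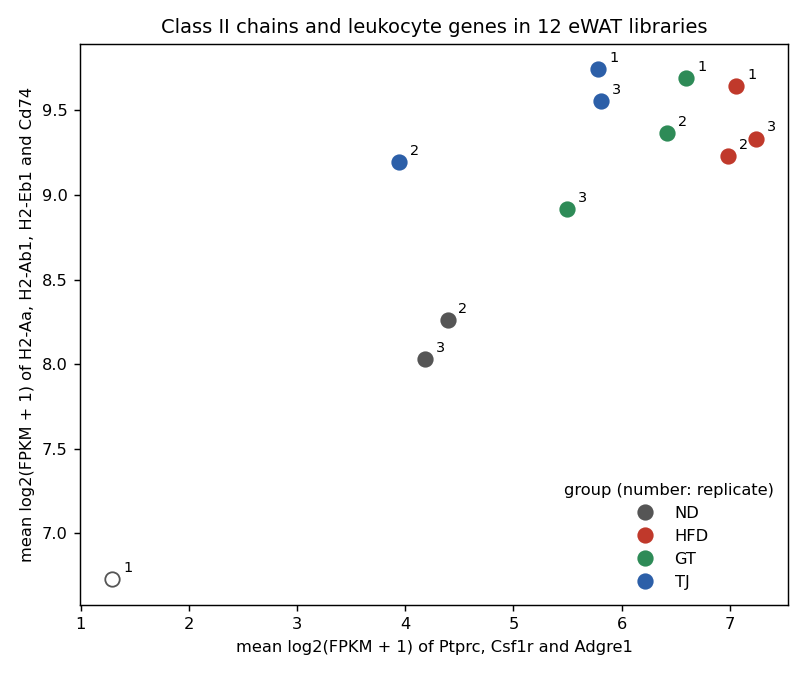
Mean log2(FPKM + 1) of H2-Aa, H2-Ab1, H2-Eb1 and Cd74 (vertical) against that of Ptprc, Csf1r and Adgre1 (horizontal) in the 12 libraries, numbered by replicate, with ND replicate 1 open. The groups on a high-fat diet share the vertical range of 8.92 to 9.74, while on the horizontal axis the TJ libraries, at 3.94 to 5.81, lie left of the HFD libraries, at 6.98 to 7.24.

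Of 12 further genes of the pathway, 10 were tested between the TJ and HFD groups, and 2 were called, both lower, where 11.1% of all tested genes were called lower. These were March1, the ubiquitin ligase that removes class II and CD86 from the surface (-1.61, adjusted p = 0.0362), and Ctsd, the protease cathepsin D (-1.08, adjusted p = 0.0294). Ctss, cathepsin S, which makes the last cut in the invariant chain, was at 902, 719 and 913 FPKM in the HFD libraries and at 605, 106 and 444 FPKM in the TJ libraries, so that the log2 fold change was -1.45 (adjusted p = 0.114). Its TJ libraries were all below its HFD libraries, with TJ replicate 2 far below the other two. The median of the 10 genes was -1.02, beside -0.14 for all tested genes. H2-DMb2 had the most positive log2 fold change of the list, at 0.39, and H2-Oa, a chain of the DM inhibitor, was listed at 0 in every library. Between the GT and HFD groups 0 of the 10 were called in limma, beside 3.63% of all tested genes in either direction. Of the 10, 6 had an unadjusted p-value under 0.05 in limma, and the median was -0.45. Between the HFD and ND groups 3 were called higher, beside 1.73% of all tested genes: Ctss (5.27, adjusted p = 0.0413), the lysosomal thiol reductase gene Ifi30 (3.03) and Lgmn, the asparaginyl endopeptidase (3.05). Without ND replicate 1 there were 7, beside 11.0% of all tested genes, the other 4 being Ctsb, Ctsd, Ctsl and March1. With the replicate number as a block, 0 of the 44 tested genes of the 4 lists described here and below were called, and 13 had an unadjusted p-value under 0.05 in limma. The calls were also lost without any single HFD library or without ND replicate 2 or 3. Those fits, with the block or with a library left out, called 0 to 24 of all tested genes.

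Among 5 tested costimulatory genes other than the members, 3 were called lower in the TJ than in the HFD group, beside 11.1% of all tested genes. Cd80, the partner of Cd86 as a ligand of CD28, was at 2.52, 2.14 and 2.40 FPKM in the HFD libraries and at 0.763, 0.688 and 1.36 FPKM in the TJ libraries (-0.81, adjusted p = 0.0455). Cd40, the receptor for the CD40 ligand of T cells, had a log2 fold change of -0.87, and Cd276 had -1.18, and the median of the 5 genes was -0.81. Cd274, which encodes the inhibitory ligand PD-L1, was at 0.28 (adjusted p = 0.320). The difference between the changes of Cd80 and Cd86 was not tested. In the GT group Cd276 was called lower as well (-0.86, adjusted p = 0.0477), and no other gene of this list was.

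Of the partners of CIITA and the interferon-γ axis, 16 of 17 matched genes were tested between the TJ and HFD groups. Irf1, a transcription factor induced by interferon-γ, rose in the TJ group (0.77, adjusted p = 0.0253), and it was at 29.9, 25.6 and 23.1 FPKM in the HFD libraries and at 41.0, 47.1 and 47.7 FPKM in the TJ libraries. Nfya, a subunit of the Y box factor NF-Y (-1.56), the myeloid factor gene Spi1 (-1.47) and the kinase gene Jak1 (-0.82) fell. Rfxap, a subunit of the RFX complex, had the most positive log2 fold change of the list, 0.84, without being called (adjusted p = 0.0622), and Rfx5 was at -0.58 (adjusted p = 0.247). Ifng itself was at 0.288 FPKM or less in every library and was not tested. The median of the list was -0.43. In the GT group Nfya was called lower (-0.80, adjusted p = 0.0439), and the median was -0.18. Nfya and Cd276 were the 2 of 44 tested genes of the 4 lists called in the GT group, beside 3.63% of all tested genes in either direction, and 0 were called with no filter, without the trend, with the replicate block, with all 12 libraries in the fit, in the fit without ND replicate 1 or without HFD replicate 1, 2 or 3 or GT replicate 2 or 3, where 3 to 16 had an unadjusted p-value under 0.05 in limma. Those alternative fits called 1 to 139 of all tested genes, so that the loss was not particular to these lists.

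Class I presentation, which serves CD8+ T cells, was examined beside class II. Of 13 tested genes, 4 were called higher in the TJ than in the HFD group, where 7.41% of all tested genes were, and 0 were called lower. The 4 were Psmb9, a subunit of the immunoproteasome (1.12, adjusted p = 0.0248), the peptide transporter genes Tap1 (0.80) and Tap2 (0.85), and Nlrc5, the class I counterpart of CIITA (0.73). Psmb9 was at 14.4, 12.4 and 12.6 FPKM in the HFD libraries and at 27.7, 40.4 and 23.6 FPKM in the TJ libraries, with no overlap. The class I heavy chain genes H2-K1 and H2-D1 were at 0.43 and 0.39 (adjusted p = 0.0649 and 0.0960). Of the 4 genes with negative values, the chaperone gene Canx had the lowest, at -0.57 (adjusted p = 0.133). Pdia3, at -0.51 (adjusted p = 0.0432), missed the 1.5-fold limit, and Calr was at -0.48 (adjusted p = 0.0792). The median of the list was 0.36. Under quantile normalization 2 genes of this list were called lower and 4 higher, where 1151 of 12807 tested genes were called lower and 1543 higher. In the GT group 0 of the 13 were called, beside 3.63% of all tested genes in either direction, and 6 had an unadjusted p-value under 0.05 in limma. The calls between the TJ and HFD groups in these 4 lists, 13 of 44 tested genes beside 18.5% of all tested genes in either direction, fell to 0 when HFD replicate 1, 2 or 3 or TJ replicate 1 was left out, and 19 to 24 of the 44 then had p-values below 0.05 before adjustment. Those fits called 0 of all tested genes. With all 12 libraries in the fit 0 were called, beside 1 of 12807 tested genes. With no filter on low values 2 of 52 were, both higher, beside 382 of 20343 tested genes. With the replicate block 8 of the 44 were called, 2 higher and 6 lower, beside 1198 of 12807 tested genes.

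**Figure D5:**
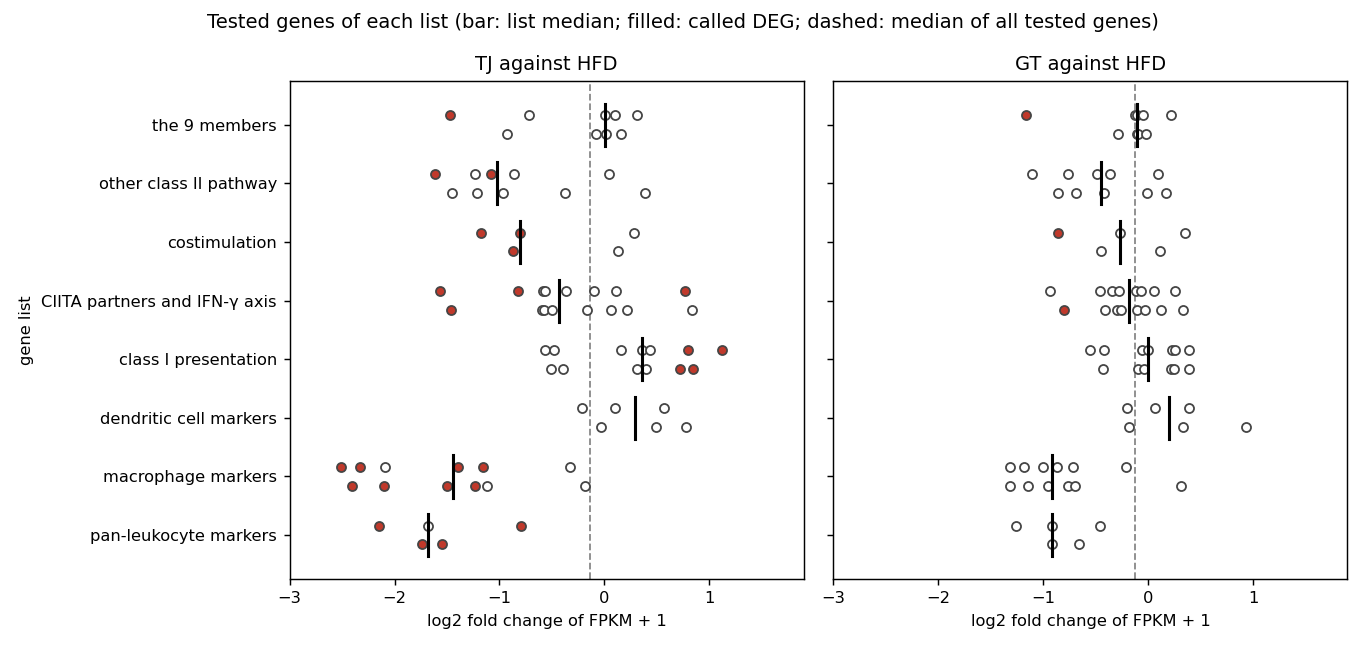
Log2 fold changes of FPKM + 1 of the tested genes of each list in the TJ and GT groups against the HFD group, with bars at the list medians, filled points for DEGs and a dashed line at the median of all tested genes (-0.14 and -0.12). In the TJ comparison, among the 8 lists drawn, the medians run from -1.68 for pan-leukocyte markers and -1.45 for macrophage markers to 0.36 for class I presentation, with the 9 class II members at 0.00.

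Markers of the cell types that could carry the class II genes were summed in each library. The 12 macrophage markers, of which Lyz2 had the highest level and none was at 0, summed to 81.4 to 613 FPKM in the ND group, 3271 to 4606 FPKM in the HFD group, 1331 to 3010 FPKM in the GT group and 787 to 2388 FPKM in the TJ group, and 8 of them were called lower in the TJ than in the HFD group, beside 11.1% of all tested genes. The 10 genes listed as dendritic cell markers, led by Clec10a, summed to 41.5 to 73.9 FPKM in the ND group, 120.5 to 146 FPKM in the HFD group, 120.8 to 176 FPKM in the GT group and 133 to 158 FPKM in the TJ group. None of the 6 that were tested was called in limma between the TJ and HFD groups, beside 18.5% of all tested genes in either direction. Their median log2 fold change was 0.29, with 4 values above 0 and 2 below. The 2 with an unadjusted p-value under 0.05 in limma were Cd209a (0.77, adjusted p = 0.0579) and Zbtb46 (0.57, adjusted p = 0.0584). Most of the dendritic cell sum came from Clec10a and Fscn1, whose log2 fold changes were -0.21 and 0.49 (adjusted p = 0.272 and 0.131), so that the overlap of the sums between the HFD and TJ groups rests on these genes. Whether the RNA of Clec10a and Fscn1 came from dendritic cells was not tested. The 7 B cell markers summed to 2.94 to 6.58 FPKM in the HFD group and 4.47 to 10.2 FPKM in the TJ group, with Ms4a1 (CD20) at 0 in every library, and the 8 T cell markers to 5.88 to 9.59 and 8.66 to 9.68 FPKM. Trac, which made up most of the T cell sum in the HFD group, was at 6.50, 7.14 and 3.499 FPKM in the HFD libraries and at 3.21, 4.12 and 4.61 FPKM in the TJ libraries, with overlap. Cd3d, Cd3e and Cd3g, all at 1.82 FPKM or less in these groups, were higher in all TJ than in all HFD libraries, as were 20.1% of the tested genes. Cd3d and Cd3e averaged under 1 FPKM here and were not themselves among the tested genes. Foxp3, at 0.332 FPKM or less, was higher too, and Cd4, Cd8a and Cd8b1 overlapped. The 8 adipocyte markers summed to 16840 to 19270 FPKM in the HFD group and 30090 to 66990 FPKM in the TJ group, where 6 of them were called higher, beside 7.41% of all tested genes, and TJ replicate 2 was the highest. The part of any cell type in the levels of the members was not tested.

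Over the 12 libraries, the genes whose log2 levels followed the mean of H2-Aa, H2-Ab1, H2-Eb1 and Cd74 most closely among 13935 genes were Rab29 (Pearson r = 0.992), Cnpy4 (0.985), Rexo2 (0.983), Clec10a (0.983) and Fabp5 (0.978). For Cd83 they were Gpr137b (0.994), Wdr1 (0.993), Anxa4 (0.993), Ctsa (0.987) and Snx5 (0.986), so that the closest genes of the chains and of Cd83 had none in common. Rab29 had group means of 12.2 FPKM in the ND group, 29.8 FPKM in the HFD group, 31.0 FPKM in the GT group and 33.1 FPKM in the TJ group. Gpr137b had 10.3, 78.8, 37.6 and 26.6 FPKM in the same order. The points share the library, its depth and its mixture of cells, ND replicate 1 lies far from the rest, and the correlations are given as descriptions.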

How the data were processed

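RNA-seq of 12 eWAT libraries was analysed. The authors filtered the reads, mapped them with STAR (2.4.0 in the submitters' processing notes) and deposited FPKM values computed by Cufflinks 2.1.1 with noncoding regions masked and with multiread and bias correction. Base calling used CASAVA 1.8.2. The methods name a human genome of Ensembl, whereas all 23474 identifiers are mouse. GENCODE named 22671 of them (GRCm38). FPKM hold no counts, which leaves the spread between libraries as the measure of precision, and the depths are approximate.

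Tests covered genes averaging 1 FPKM or more in the 6 libraries compared and used limma 3.58.1 (R 4.3.3, eBayes with trend) on log2(FPKM + 1), without covariates. For single genes, scipy 1.17.1 gave exact permutation tests. The procedure was tested on simulated data. The members, gene lists and tests were chosen with earlier results of these data known. The genes named are the members, the list genes that were called or had the largest or smallest change, the leading marker genes and the closest correlates, and others were named after their values were seen. Alternatives were another pseudocount (0.1), other filters (none, or a mean of 5 FPKM), quantile normalization or scaling by median of ratios, a fit of all 12 libraries, a replicate block, no trend, and leaving out each library. The fit of 11 libraries, without ND replicate 1, was added later. Deviations from the group means correlated at 0.557, 0.353 and 0.135 between the ND and HFD libraries of equal number, each over 0.1, and these numbers were taken to pair the libraries, although no label states what they share and HFD replicate 3 correlated more with ND replicate 2, at 0.636.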

Additional observations from a re-analysis of the deposited data

How the results depend on the processing

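The number of members called between the TJ and HFD groups was 0 with no filter on low values and 0 with all 12 libraries in the fit, and 0 to 2 when a library was left out. Of all tested genes, the fit with no filter called 382 of 20343 and that with all 12 libraries 1 of 12807. Between the GT and HFD groups it was 0 with no filter, 0 with all 12 libraries, 0 with the replicate block, 0 without the trend and 0 in the fit without ND replicate 1, and 0 to 1 when a library was left out. Of all tested genes, 5 of 19470 were called with no filter. Of 12766, 1 was called with all 12 libraries, 5 with the block, 67 without the trend and 139 without ND replicate 1. Between the HFD and ND groups it was 7 with all 12 libraries, 8 in the fit without ND replicate 1, 0 with the replicate block and 0 to 8 when a library was left out. Of all tested genes, all 12 libraries gave 1131 of 14430, the fit without ND replicate 1 gave 2656 of 13661 and the block gave 0. Between the TJ and ND groups it was 6 in the fit without ND replicate 1, which called 2217 of 13314 tested genes. The cause was not tested, although leaving out a library leaves fewer samples and dropping the filter adds genes to the adjustment. In the TJ comparisons the replicate block changed no call of a member.

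Log2 fold changes near 0 turned sign. Between the TJ and HFD groups, quantile normalization gave -0.34 for H2-Aa and -0.14 for H2-Ab1, and median-of-ratios scaling gave 0.062 for Cd74. With a library left out, the ranges were -0.12 to 0.17 for H2-Aa, -0.15 to 0.23 for H2-DMa and -0.20 to 0.13 for Cd74. Between the GT and HFD groups, median-of-ratios scaling gave 0.0044 for H2-Aa, 0.022 for H2-Ab1, 0.11 for H2-Eb1, 0.082 for Cd74, 0.016 for Ciita and 0.011 for Cd86, and quantile normalization gave 0.0075 for H2-Eb1, 0.059 for Ciita and 0.13 for Cd86. With a library left out, the ranges were -0.31 to 0.083 for H2-Aa, -0.32 to 0.10 for H2-Ab1, -0.20 to 0.18 for H2-Eb1, -0.54 to 0.036 for H2-DMb1, -0.21 to 0.14 for Cd74, -0.24 to 0.11 for Ciita and -0.21 to 0.10 for Cd86. The chains relative to the leukocyte genes, TJ minus ND, were at 0.13 with Ptprc alone as the reference and at -0.53 to 0.46 with a library left out.

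For all tested genes, the DEGs between the TJ and HFD groups were 949 higher and 1417 lower, 1285 and 1082 with median-of-ratios scaling, and 1543 and 1151 with quantile normalization. A filter at a mean of 5 FPKM left Cd86 untested. The table holds no counts, and 3 libraries a group limit the precision of each value.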
